A study of Arabidopsis thaliana with 15 samples.

Results

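The 72 genes described here had their highest expression in the middle precursors of the stomatal lineage of Arabidopsis thaliana, the meristemoids late in their life and the guard mother cells newly made from them. They were chosen from a table of log2 expression values on ATH1 arrays, which measure each gene with a probe set. A gene was taken where the lowest of the 3 middle precursor arrays lay above every one of the other 12 arrays, the middle mean was at least 3.5, and that mean was at least 0.5 above each of the other 4 group means. Of 12783 probe sets listed to 1 gene, 73 met these conditions, and AT5G23400 was left out by the rule, which leaves 72, or 0.563%. SBT1.3, also left out by name, did not meet the conditions. Another 76 probe sets listed to no gene and 2 listed to several met them too, and they are not described. Since the level of the middle precursors chose the genes, every difference between middle precursors and another population is given as a description, with no test.

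Cells were sorted by fluorescence from protoplasts of the aerial tissue of 14-day-old seedlings, with 3 arrays for each of 5 reporter lines in the Col background. Middle precursors carried MUTEp::nucGFP, a nuclear GFP under the MUTE promoter. Early precursors (the mother cells of meristemoids, and young meristemoids) carried SPCHp::SPCH-YFP, and late precursors (guard mother cells about to divide and their young guard cell daughters) carried FAMAp::GFP-FAMA. Mature guard cells came from the enhancer trap line E1728::GFP, and the epidermis, sorted as a whole and so including lineage cells, from ML1p::YFP-RCI2A. All seedlings were grown with 16 h of light and 8 h of dark at 25 °C and with 1% sucrose. All populations had been through 2 h of protoplasting, and each replicate held 2000 to 20000 cells. Each population is its own line, so a gene's line and its stage cannot be told apart. In sorted populations, fewer cells of a type and less RNA per cell cannot be told apart either. The labels do not say that replicates came from separate cultures, so p-values measure the spread between these samples. The number of arrays limits the precision.

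As background, stomata arise through a short series of divisions governed by related basic helix-loop-helix factors. SPCH starts the asymmetric divisions that make meristemoids, MUTE ends them and turns a meristemoid into a guard mother cell, and FAMA acts around the single symmetric division that makes the pair of guard cells. Cells in which the MUTE promoter is active are therefore between self-renewal and the last division.

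The sorted cells were first checked against these regulators. FAMA averaged 6.64 ± 0.25 in middle precursors, against 2.29 ± 0.38 in early precursors, 10.11 ± 0.26 in late ones, 7.23 ± 0.30 in mature guard cells and 3.19 ± 0.18 in sorted epidermis (SD, n = 3 each). SPCH averaged 4.10 ± 0.63 in middle precursors, against 9.11 ± 0.10 in early precursors and 2.27 to 2.52 in the other 3 populations. The SPCH and FAMA transgenes of the early and late lines can add to the signal of those genes. MUTE itself was highest in middle precursors, at 2.37 ± 0.43 against means of 1.54 to 1.69 elsewhere, but all 5 of its means were at or below 2.68, the highest median of any array, which is taken here as the bound of the background. That bound was chosen with the data in view, and folds that rest on a mean at or below it are given as at least the printed value. By SPCH and FAMA the middle sort thus lay between the early and the late sort, while MUTE gave no level above the bound.

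The same conditions with another population in place of the middle were met by 126 probe sets for early precursors, 123 for late precursors, 36 for mature guard cells and 140 for the epidermis, out of the same 12783. Of the 3596 probe sets of 1 gene with a middle mean of at least 3.5, 933 (25.9%) had their highest mean in middle precursors. The 72 belong to those 933.

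Most of the 72 genes were active in several populations and stood somewhat higher in the middle one. Their middle means ran from 3.58 to 11.03 with a median of 5.40, against medians of 3.84 in early precursors, 4.39 in late ones, 4.42 in mature guard cells and 3.61 in sorted epidermis. The gap between the middle mean and the highest other mean had a median of 0.884, a 1.85-fold difference, and ran from 0.512 (1.43-fold) to 1.97 (at least 3.92-fold). It was at least 1 in 30 genes and at least 1.5 in 5. The next highest population was mature guard cells for 30 genes, late precursors for 28, early precursors for 9 and the epidermis for 5. The lowest population was the epidermis for 37 genes and early precursors for 24. For 58 genes no other population fell to the bound of the background, for 11 between 1 and 3 did, and for 3 genes (AT1G68470, AT4G35335 and AT3G17640) all 4 did. For 28 genes the other 4 populations differed more among themselves than the middle differed from the next one. No share over all probe sets was taken for the next highest population, the lowest one or this range.

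**Figure D1:**
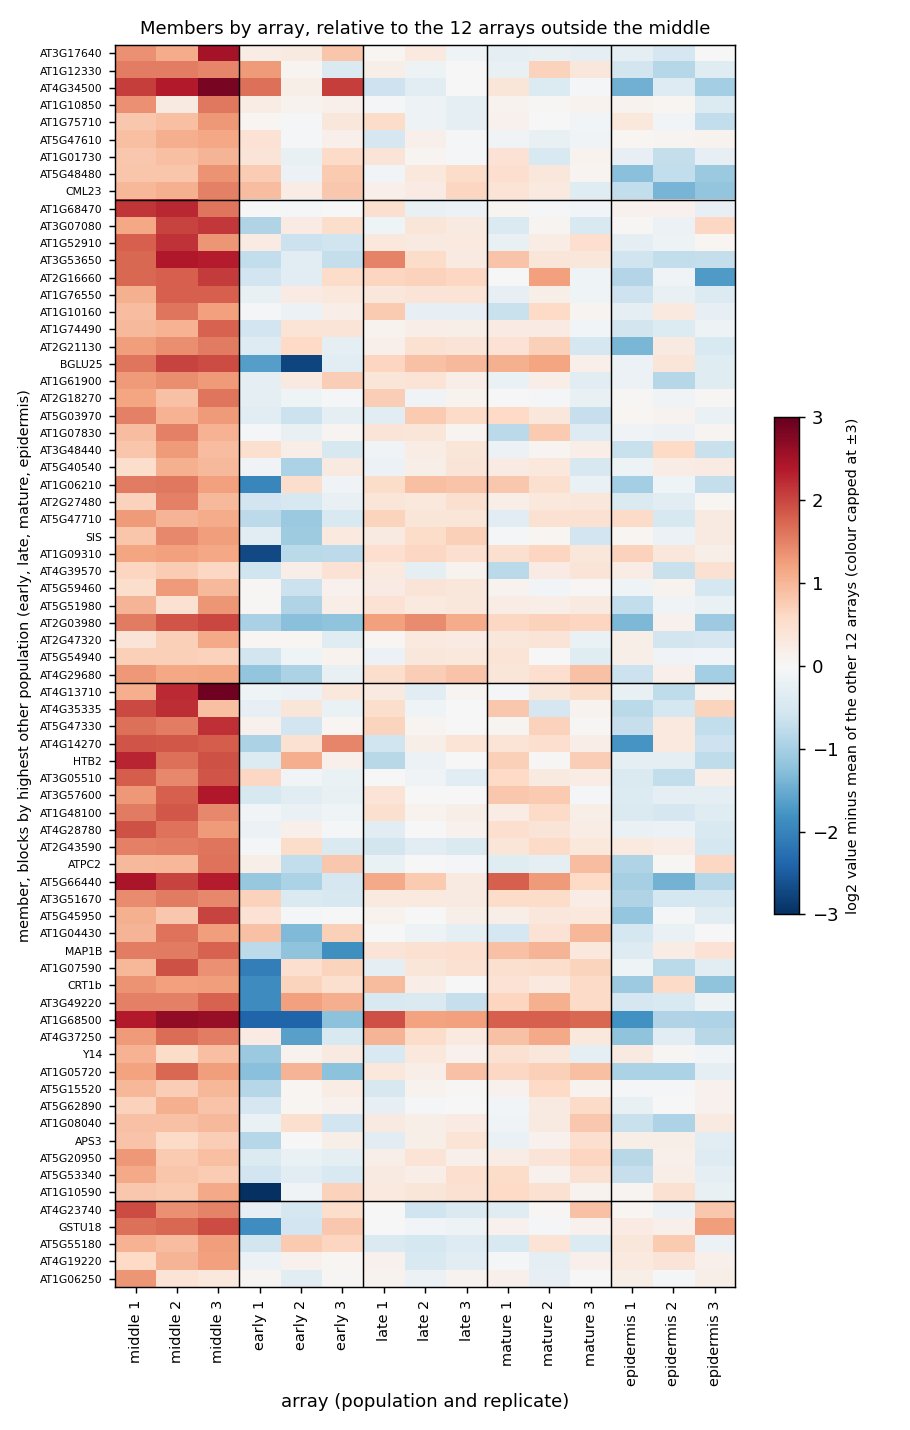
The heatmap shows the log2 value of each of the 72 genes on each of the 15 arrays minus its mean over the 12 arrays outside the middle precursors, with colour capped at 3 either way. Rows are in blocks by the population with the second highest mean (9 early, 28 late, 30 mature guard cells, 5 epidermis), and the 3 middle columns are above every other column in each row because the rule required it.

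**Figure D2:**
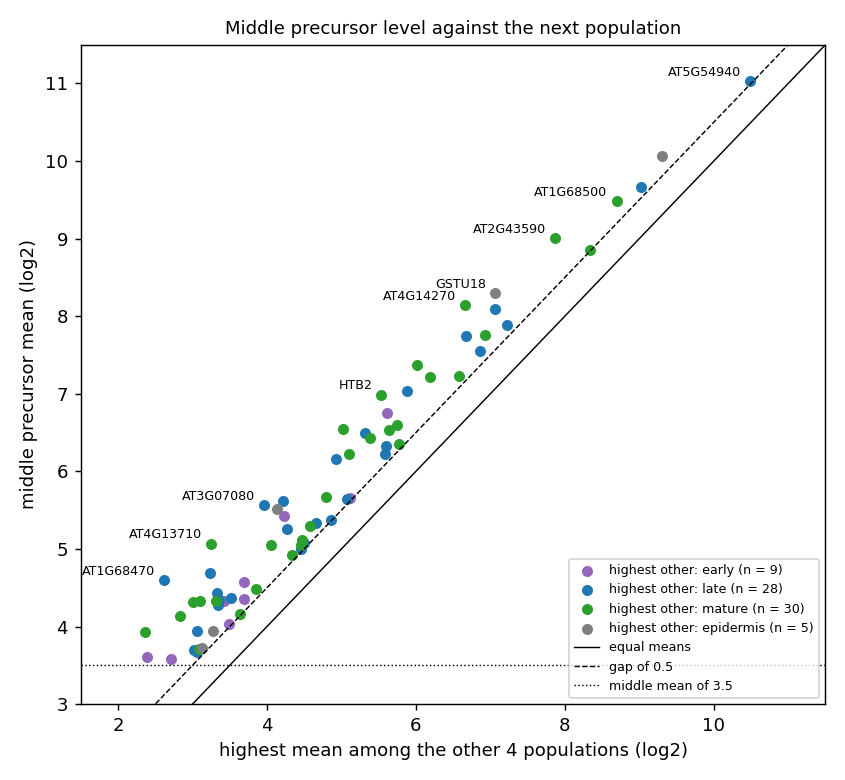
Each point is 1 of the 72 genes, with its middle precursor mean on the vertical axis and the highest of the other 4 means on the horizontal axis, both in log2 units. Gaps of at least 1.5 are found at middle means of 3.93 to 6.55, and the 5 genes with middle means of at least 9 have gaps between 0.54 and 1.13.

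The widest gaps belonged to genes that the annotation names by locus code alone, so no role is given for them. AT1G68470 had 4.73, 4.86 and 4.20 in middle precursors, against 2.60, 2.55 and 2.58 in early precursors, 3.08, 2.37 and 2.43 in late ones, 2.69, 2.53 and 2.52 in mature guard cells and 2.72, 2.74 and 2.36 in sorted epidermis. It was at or near the background on the 12 other arrays and on average at least 3.92-fold higher in middle precursors than in late precursors, the next population. AT4G13710 had 4.06, 5.23 and 5.91 in middle precursors, against 2.87, 2.81 and 3.29 in early precursors, 3.25, 2.68 and 3.08 in late ones, 2.93, 3.33 and 3.51 in mature guard cells and 2.77, 2.22 and 3.09 in sorted epidermis. Its middle arrays were the most spread of the 5 populations (SD 0.93), and the lowest still lay 0.56 above the highest other array. AT4G35335 (4.21, 4.46 and 3.14 in middle precursors, against 1.43 to 3.03 on the other 12 arrays) and AT3G17640 (3.33, 3.06 and 4.45 in middle precursors, against 1.43 to 2.79 on the other 12 arrays) were likewise at or below the bound in all 4 other means, and their middle arrays were uneven. A second probe set listed to AT4G35335 averaged 1.97 in middle precursors and 1.60 to 1.84 elsewhere, so the probe sets of that gene do not show the same level.

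Other genes with wide gaps were clearly measured in every population. AT3G07080 had 4.96, 5.83 and 5.92 in middle precursors, against 2.89, 4.03 and 4.32 in early precursors, 3.66, 4.14 and 4.07 in late ones, 3.35, 3.87 and 3.33 in mature guard cells and 3.82, 3.61 and 4.40 in sorted epidermis. Its middle mean was 3.05-fold that of late precursors and 4.14-fold that of mature guard cells, and the other 4 means all lay between 3.52 and 3.96. AT5G47330 had 6.41, 6.29 and 6.94 in middle precursors, against 4.01 to 5.44 on the other 12 arrays, and AT3G05510 had 7.48, 7.10 and 7.54 in middle precursors, against 4.91 to 6.27 on the other 12 arrays. The lowest middle array stood 0.85 and 0.83 above the highest other array in these genes. AT4G14270 had 8.16, 8.15 and 8.11 in middle precursors, against 5.33, 6.74 and 7.76 in early precursors, 5.69, 6.45 and 6.71 in late ones, 6.70, 6.80 and 6.48 in mature guard cells and 4.52, 6.58 and 5.65 in sorted epidermis. The 3 middle arrays are close together (SD 0.03), while the early arrays are spread (SD 1.22) and the highest of them lies 0.35 below the middle ones.

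The rest of the 20 widest gaps, down to 1.15, repeat these forms. AT1G52910 (4.73, 5.11 and 4.26 in middle precursors, against 2.30 to 3.45 on the other 12 arrays), AT4G28780 (4.64, 4.36 and 4.01 in middle precursors, against 2.27 to 3.24 on the other 12 arrays), AT1G48100 (4.07, 4.37 and 3.97 in middle precursors, against 2.02 to 3.08 on the other 12 arrays) and AT3G57600 (3.77, 4.28 and 4.89 in middle precursors, against 1.99 to 3.30 on the other 12 arrays) were low elsewhere, with 1 to 3 of the other means at or below the bound. AT4G23740 (5.87, 5.28 and 5.39 in middle precursors, against 3.30 to 4.78 on the other 12 arrays), AT2G16660 (6.01, 6.08 and 6.38 in middle precursors, against 2.58 to 5.51 on the other 12 arrays), AT1G12330 (5.45, 5.46 and 5.37 in middle precursors, against 3.07 to 5.20 on the other 12 arrays) and AT1G76550 (6.01, 6.74 and 6.74 in middle precursors, against 4.32 to 5.36 on the other 12 arrays) were measured in all populations. AT1G12330 had middle arrays close together (SD 0.05), and its early precursor arrays were 5.20, 4.01 and 3.47, so that 1 early array came within 0.17 of the middle ones. AT1G10160, which the reference list of genes gives as a pseudogene, had 6.71, 7.38 and 7.01 in middle precursors, against 5.12 to 6.57 on the other 12 arrays. AT5G54940, named here after its values were seen, had 11.03, 11.03 and 11.02 in middle precursors, against 9.78 to 10.73 on the other 12 arrays. Its middle arrays were the closest together (SD 0.01), and its gap was 0.54.

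The 10 genes that have a symbol cover chromatin, RNA, protein maturation, metabolism and calcium signalling. HTB2 (AT5G22880), which encodes a core histone of the H2B type, had 7.32, 6.69 and 6.95 in middle precursors, against 4.64, 6.14 and 5.19 in early precursors, 4.21, 4.86 and 5.03 in late ones, 5.74, 5.08 and 5.78 in mature guard cells and 4.74, 4.75 and 4.29 in sorted epidermis. The middle mean was 2.73-fold that of mature guard cells, the next population, and 4.89-fold that of late precursors. Its nearest single array was an early one at 6.14, 0.55 below the lowest middle array. Y14 (AT1G51510), a core protein of the exon junction complex that marks spliced mRNA, had 7.44, 6.96 and 7.30 in middle precursors, against 5.29 to 6.86 on the other 12 arrays. Its gap was 0.66, and the other 4 means lay between 6.16 and 6.58, with 1 early array at 5.29.

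Among genes of protein maturation, CRT1b (AT1G09210), a calreticulin chaperone of the endoplasmic reticulum, had 6.67, 6.54 and 6.58 in middle precursors, against 3.42, 5.98 and 5.79 in early precursors, 6.28, 5.52 and 5.34 in late ones, 5.76, 5.62 and 5.88 in mature guard cells and 4.22, 5.89 and 4.10 in sorted epidermis. The early and the epidermal arrays were uneven, with 1 early array at 3.42 and the others at 5.98 and 5.79, and the gap over mature guard cells was 0.84. MAP1B (AT3G25740), a methionine aminopeptidase that removes the first residue of new proteins, had 6.45, 6.46 and 6.68 in middle precursors, against 4.12, 3.71 and 3.06 in early precursors, 5.31, 5.36 and 5.41 in late ones, 5.79, 5.92 and 5.21 in mature guard cells and 4.53, 5.13 and 5.34 in sorted epidermis. Every middle array was above every other array by at least 0.53, and the middle mean was 7.45-fold that of early precursors but 1.85-fold that of mature guard cells.

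Of the metabolic genes, GSTU18 (AT1G10360), a tau class glutathione transferase, had 8.16, 8.24 and 8.47 in middle precursors, against 4.64, 5.94 and 7.33 in early precursors, 6.52, 6.43 and 6.36 in late ones, 6.63, 6.47 and 6.64 in mature guard cells and 6.77, 6.67 and 7.76 in sorted epidermis. It is 1 of the 5 genes with the epidermis as the next population, over which the middle mean was 2.34-fold higher. BGLU25 (AT3G03640), listed as a beta-glucosidase, had 7.83, 8.25 and 8.19 in middle precursors, against 4.59, 3.47 and 5.89 in early precursors, 6.88, 7.11 and 7.20 in late ones, 7.31, 7.43 and 6.39 in mature guard cells and 6.05, 6.59 and 5.88 in sorted epidermis. Middle precursors were 2.04-fold above late precursors and 10.9-fold above early precursors, whose mean was the lowest and whose arrays were the most spread. APS3 (AT4G14680), an ATP sulfurylase, which activates sulfate for assimilation, had 5.06, 4.78 and 4.94 in middle precursors, against 3.34 to 4.69 on the other 12 arrays. ATPC2 (AT1G15700), a gamma subunit of the plastid ATP synthase, had 5.99, 6.03 and 6.66 in middle precursors, against 4.12 to 5.94 on the other 12 arrays, and its highest arrays outside the middle came from mature guard cells, early precursors and the epidermis alike.

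CML23 (AT1G66400), a calmodulin-like calcium sensor, had 3.83, 3.91 and 4.35 in middle precursors, against 3.78, 3.05 and 3.64 in early precursors, 2.99, 3.09 and 3.48 in late ones, 3.25, 3.15 and 2.49 in mature guard cells and 2.09, 1.45 and 1.66 in sorted epidermis. It was near the background in the epidermis and highest after the middle in early precursors, with which the middle arrays almost met. SIS (AT5G02020), listed as salt induced and serine rich, had 7.55, 8.15 and 7.98 in middle precursors, against 5.64 to 7.42 on the other 12 arrays, with late precursors next at a mean of 7.22.

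**Figure D3:**
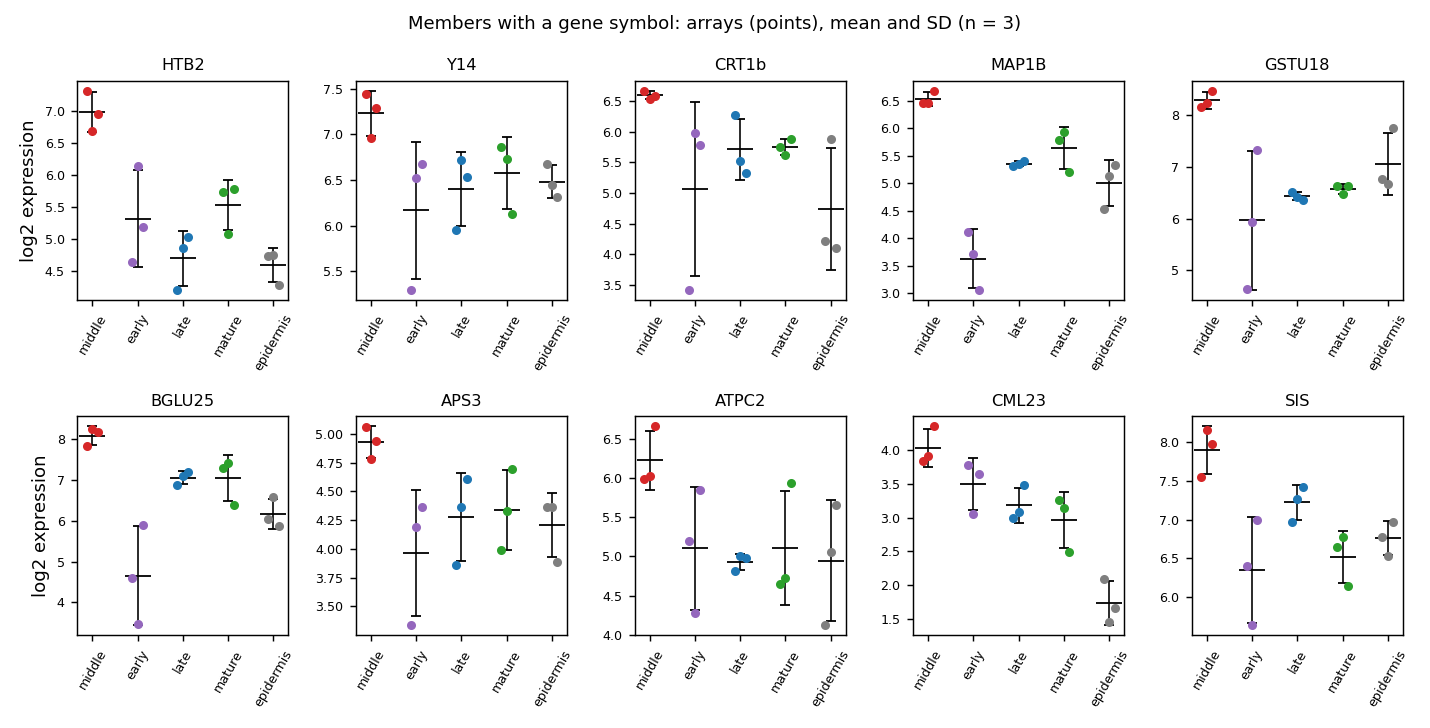
Panels show the log2 expression of the 10 genes with a symbol on each array (points), with the mean and SD of 3 arrays, by population. The middle points lie above all others in each panel, by 0.05 in ATPC2 and CML23 and by 0.55 in HTB2, and the early precursor points of CRT1b, GSTU18 and BGLU25 are the most spread.

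The number of genes that met the conditions depended on single arrays, and leaving out an array also loosens the separation asked for. With 1 array left out, 65 to 72 of the 72 still met them, and 48 did in all 15 cases. Without middle precursor replicate 2 the same conditions gave 147 genes, 69 of them among the 72, whereas leaving out any other array gave 71 to 104. After cyclic loess, a further scaling of the arrays against each other, all 72 genes still had their highest mean in middle precursors, with a median gap of 0.78, and 61 kept a gap of at least 0.5. However, the arrays of 53 remained separated, and 49 of the 72 met every condition, among them 17 of the 20 with the widest gaps. Of the 10 genes with a symbol, BGLU25, MAP1B and SIS met every condition after loess. HTB2 then had a gap of 1.17 and GSTU18 one of 0.94, with middle arrays that overlapped others by 0.01 and 0.02.

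Relatives of the genes with a symbol were looked up by name, after the values of the 72 genes had been seen. All 4 genes with an H2B symbol and a probe set of their own had their highest mean in middle precursors. This held for all 4 after loess, where the gap of HTB1 was 0.02. The rule required it of HTB2, so the lookup adds the other 3. Of all probe sets of 1 gene 12.8% had their highest mean there, and 25.9% of the 3596 with a middle mean of at least 3.5. H2B genes without such a symbol were not looked for. HTB4 had 7.08, 6.58 and 6.71 in middle precursors, against 6.02, 5.24 and 5.83 in early precursors, 6.83, 6.68 and 6.62 in late ones, 6.41, 6.77 and 6.47 in mature guard cells and 5.77, 6.14 and 5.47 in sorted epidermis. Its middle and late arrays overlap, with a gap of 0.08. HTB11 and HTB1 averaged 5.80 and 4.82 in middle precursors, with gaps of 0.41 over mature guard cells and 0.33 over early precursors, and both overlapped single arrays of other populations. HTB2 was thus the 1 of these 4 with an H2B symbol that met the rule. H2B genes are close copies of each other, and the array may not tell them apart fully.

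AT3G53650, a gene that the reference list of genes does not hold, had 5.18, 5.86 and 5.82 in middle precursors, against 2.71, 3.11 and 2.74 in early precursors, 4.94, 4.01 and 3.71 in late ones, 4.32, 3.81 and 3.80 in mature guard cells and 2.86, 2.71 and 2.73 in sorted epidermis. It was 2.64-fold higher in middle than in late precursors and 7.24-fold higher than in the epidermis, and late precursors and mature guard cells also lay above early precursors and the epidermis on every array. No symbol or role is given for AT3G53650 here, and it is not counted among the H2B genes above.

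**Figure D4:**
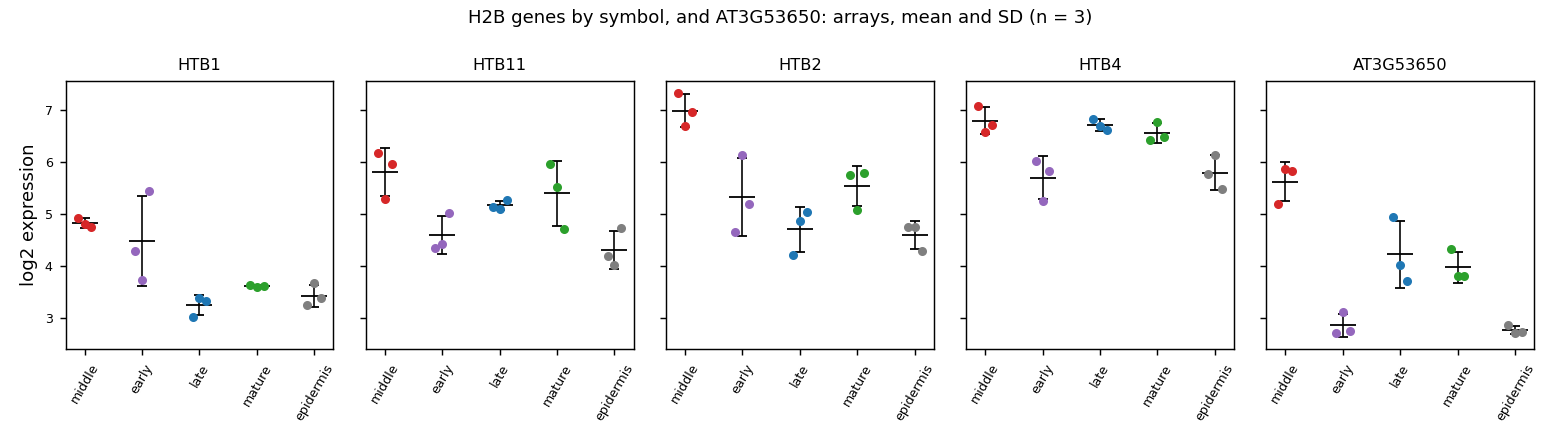
Log2 expression of the 4 genes with an H2B symbol and of AT3G53650, which has no symbol here, on each array (points) with the mean and SD of 3 arrays. HTB2 and AT3G53650 have middle arrays above all others, while those of HTB1, HTB11 and HTB4 overlap with other populations.

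In the other families the gene of the 72 stood mostly alone. The counts below include that gene, whose peak the rule required. Of 11 tau glutathione transferases 2 were highest in middle precursors, GSTU18 and GSTU22, the second of these with a gap of 0.15. Of 20 beta-glucosidases 2 were highest there, BGLU25 and BGLU41, and 11 of the 19 besides BGLU25 were at or below the bound in all populations, BGLU41 among them. MAP1B was the 1 of 4 methionine aminopeptidases, and CML37 was the other calmodulin-like gene of 7, with a gap of 0.25. ATPC1, the other plastid gamma subunit, averaged 6.17 in middle precursors and 8.19 in the epidermis, where it was highest.

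None of the genes of the marker lists met the rule, and few of those genes have a probe set of their own here. Of 18 genes of the G2/M phase and cytokinesis 5 were measured, all 5 highest in early precursors and second highest in middle precursors. KINESIN-12B, a phragmoplast motor, averaged 5.0 ± 0.22 in middle precursors, against 5.08 ± 0.31 in early precursors and 2.98 to 3.61 elsewhere (SD, n = 3). 3xHMG-box2, a mitotic chromosomal protein, averaged 8.10 ± 0.21 in middle precursors, against 9.32 ± 0.04 in early precursors and 5.73 to 6.39 elsewhere. PRL, the 1 measured gene of 13 for DNA replication and a subunit of the replicative helicase, was highest in middle precursors at 3.30 ± 0.42, against 2.07 to 2.3 elsewhere, and so fell below the level the rule asks for. For the cell cycle genes of the guard mother cell division no probe set was at hand (0 of 9). In the tests among the other populations described below, AUR1, 3xHMG-box2 and KINESIN-12B, 3 of the 5 G2/M genes, were higher in early precursors than in the epidermis (log2 differences of 2.1, 3.39 and 2.1; adjusted p = 0.0364, 0.00028 and 0.00024) and lower in late than in early precursors (-1.95, -3.59 and -1.77; adjusted p = 0.0298, 7.92e-05 and 0.000276). Both differences of AUR1 are at least of the printed size, since its means in the epidermis and in late precursors, 2.02 and 2.17, lay below the bound. AUR2 and AUR3 did not pass in any of these comparisons. PRL did not pass in any of these tests.

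Markers of other cell types were also few. The mature guard cell genes CHX20, GC1 and BLUS1 (3 of 9 measured) averaged 7.11, 4.77 and 2.11 in middle precursors, against 10.03, 9.07 and 2.63 in late precursors, where each was highest. In mature guard cells they averaged 9.66, 8.81 and 2.41, and none of them was called between mature guard cells and late precursors. The mesophyll genes RCA and PSAE-1 (2 of 6) averaged 7.46 and 8.58 in middle precursors, against 9.75 and 10.44 in the epidermis, again the highest. PSAE-1 was lower than in the epidermis in early precursors (-2.61; adjusted p = 0.0121) and in late precursors (-1.96; adjusted p = 0.046), and RCA did not pass in any of the 5 comparisons. The part of mesophyll RNA in the comparisons with the epidermis was not tested. The trichome gene TRY (1 of 5) averaged 1.97 in middle precursors, at the background, and 0 of 6 vascular and 0 of 6 epidermal markers were measured. None of the measured markers of these other cell types peaked in middle precursors. All 3 mature guard cell genes were higher in late than in early precursors (adjusted p = 0.00997 for GC1, 4.1e-05 for CHX20 and 0.0426 for BLUS1, whose 5 means were all at or below the bound). Of the 20 lineage regulators 5 were measured, and between late and early precursors FAMA was higher and SPCH and BRXL2 were lower.

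The other 4 populations were compared with each other to ask how the 72 genes behave outside the middle precursors. The rule used the arrays of these 4 too, since each had to lie below the lowest middle array. It thus capped their values, and the tests are not independent of the choice of genes. Those tests used the 12 arrays without the middle precursors, in 1 linear model with limma's moderated test and Benjamini-Hochberg adjustment over all 20956 probe sets, with calls at an adjusted p under 0.05.

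Late precursors and early precursors differed in 12 of the 72 genes, 11 higher and 1 lower in late precursors. This is 16.7%, against 14.9% of all probe sets (8.98% higher and 5.91% lower) and 25.8% of the 3596 with a middle mean of at least 3.5. The share is thus near that of all probe sets and below that of the 3596, which had to reach the same level. The median log2 fold change of the 72 was 0.29, against -0.15 over all probe sets and 0.35 over the 3596. Cyclic loess moved the median over all probe sets to -0.025 and gave 11 calls among the 72.

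The gene that differed most was AT1G68500, which had 9.29, 9.60 and 9.54 in middle precursors, against 4.52, 4.53 and 5.70 in early precursors, 8.87, 8.13 and 8.15 in late ones, 8.72, 8.73 and 8.64 in mature guard cells and 5.11, 6.03 and 5.99 in sorted epidermis. It was thus high in late precursors and mature guard cells as well as in middle precursors, and 3.47 (SE 0.36) higher in late than in early precursors on the log2 scale (adjusted p = 0.000193). AT2G03980 had 5.38, 5.72 and 5.82 in middle precursors, against 2.86, 2.58 and 2.61 in early precursors, 5.04, 5.25 and 4.95 in late ones, 4.44, 4.51 and 4.47 in mature guard cells and 2.48, 3.96 and 2.74 in sorted epidermis. Late precursors were 2.40 (SE 0.31) above early precursors (adjusted p = 0.000762), with no overlap of arrays. BGLU25 and MAP1B, whose arrays are given above, rose by 2.41 (SE 0.51) and 1.72 (SE 0.30) in late against early precursors (adjusted p = 0.0113 and 0.00394). The call of BGLU25 was lost when only these groups were fitted (adjusted p = 0.0666).

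AT1G09310 had 9.66, 9.72 and 9.64 in middle precursors, against 5.76, 7.66 and 7.68 in early precursors, 8.99, 9.10 and 8.98 in late ones, 8.96, 9.13 and 8.82 in mature guard cells and 9.17, 8.81 and 8.65 in sorted epidermis. It stood out by its low early precursor arrays, 1.99 (SE 0.42) below late precursors (adjusted p = 0.0115, and 0.0845 in a fit of these groups alone). AT4G34500, the 1 gene that was lower in late precursors, had 6.40, 6.70 and 7.17 in middle precursors, against 5.97, 4.50 and 6.39 in early precursors, 3.70, 3.99 and 4.32 in late ones, 4.69, 3.91 and 4.27 in mature guard cells and 2.87, 3.94 and 3.30 in sorted epidermis. The difference was -1.62 (SE 0.45; adjusted p = 0.0385), and it passed in 8 of 19 alternative fits.

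Between mature guard cells and late precursors 0 of the 72 genes were called with limma, against 10 of all 20956 probe sets (0.0477%), and 5 of the 72 (6.94%) had an unadjusted p under 0.05, against 5.89% of all probe sets. With array weights 3 of the 72 were called, against 779 of the 20956. The median log2 fold change of the 72 was 0.02. HTB2 had a log2 fold change of 0.84 (SE 0.37) in mature guard cells over late precursors, which did not pass (adjusted p = 0.836).

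Each of the lineage populations was also compared with the epidermis. In early precursors 3 of the 72 genes were higher and 2 lower, 6.94% against 6.45% of all probe sets (2.42% higher and 4.03% lower) and 14.1% of the 3596. CML23 was at least 3.37-fold higher in early precursors than in the epidermis, a log2 difference of at least 1.75 (SE 0.27; adjusted p = 0.00424). AT4G34500 was 2.25 (SE 0.45) higher in early precursors (adjusted p = 0.0158). AT5G48480 had 5.48, 5.48 and 6.01 in middle precursors, against 5.42, 4.48 and 5.44 in early precursors, 4.58, 4.96 and 5.21 in late ones, 5.16, 5.0 and 4.74 in mature guard cells and 3.39, 3.93 and 3.54 in sorted epidermis. It was 1.49 (SE 0.28) higher in early precursors than in the epidermis (adjusted p = 0.0113), and its epidermal arrays were the lowest of all. AT1G09310 and MAP1B were lower in early precursors, by -1.84 (SE 0.42; adjusted p = 0.0285) and -1.37 (SE 0.30; adjusted p = 0.0222). In a fit of these groups alone the call of CML23 held and the other 4 did not. Without early precursor replicate 1 the count was 11, without replicate 3 it was 8, and without an epidermal array it was 2 or 3. Over all probe sets the 1352 calls became 1585, 2058 and 720 to 972 in these fits.

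In late precursors 9 of the 72 genes were higher than in the epidermis and 0 lower, 12.5% against 5.52% of all probe sets (3.44% higher) and 10.4% of the 3596. In mature guard cells 6 were higher and 0 lower, 8.33% against 2.09% of all probe sets (1.44% higher) and 4.62% of the 3596. After loess the calls over all probe sets split differently, with 50.2% in place of 62.2% higher in late precursors and 48.7% in place of 68.8% higher in mature guard cells. The counts of the 72 after loess were 8 and 4.

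AT1G68500 was 2.67 (SE 0.36) higher in late precursors and 2.98 (SE 0.36) higher in mature guard cells than in the epidermis (adjusted p = 0.00273 and 0.0031). AT5G66440 had 6.61, 6.17 and 6.51 in middle precursors, against 3.02, 3.20 and 3.64 in early precursors, 5.30, 4.93 and 4.43 in late ones, 5.94, 5.44 and 4.76 in mature guard cells and 3.15, 2.73 and 3.30 in sorted epidermis. It was 1.83 (SE 0.32) higher in late precursors and 2.32 (SE 0.32) higher in mature guard cells than in the epidermis (adjusted p = 0.0102 and 0.00629), and also 1.60 (SE 0.32) higher in late than in early precursors (adjusted p = 0.00922). AT2G03980 was 2.02 (SE 0.31) higher in late precursors (adjusted p = 0.00572) and 1.41 (SE 0.31) higher in mature guard cells (adjusted p = 0.0464). AT3G53650 was 1.46 (SE 0.29) higher in late precursors (adjusted p = 0.0157) and 1.37 (SE 0.29) higher in late than in early precursors (adjusted p = 0.0106). CML23 was at least 1.45 (SE 0.27) higher in late precursors (adjusted p = 0.0131) and at least 1.23 (SE 0.27) higher in mature guard cells (adjusted p = 0.0489). AT5G48480 was 1.35 (SE 0.28) higher in mature guard cells (adjusted p = 0.0367).

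These calls differed in how well they held. Those of AT1G68500 and AT5G66440 passed in all 19 alternative fits of each comparison, as did those of AT2G03980 in late precursors against either population. Those of AT2G03980 and CML23 in mature guard cells passed in 6 of 19. For AT3G53650 the call of late against early precursors was lost with only these groups fitted (adjusted p = 0.0713). Its call of late precursors against the epidermis was lost without epidermis replicate 3 (adjusted p = 0.0628). That of CML23 in late precursors was lost without epidermis replicate 3, without late precursor replicate 3 and with averaged late replicates (adjusted p = 0.0538 to 0.0621). That of AT5G48480 in mature guard cells was lost in several fits. Among them were cyclic loess (adjusted p = 0.0524) and the fits without any 1 mature guard cell array (adjusted p = 0.0582 to 0.137). The 9 calls of late precursors became 4 without epidermis replicate 3 or late precursor replicate 3, and 5 without epidermis replicate 1 or late precursor replicate 2. Over all probe sets the 1157 calls became 507, 480, 877 and 431 in these fits, in the same order. The 6 calls of mature guard cells became 2 without epidermis replicate 1 or 3, late precursor replicate 2 or 3, or mature guard cell replicate 1 or 2. In these fits the 439 calls over all probe sets became 139 to 269. Late precursor replicates 2 and 3 had the highest correlation of the 15 pairs of replicates (Pearson's r = 0.994, taken over probe sets), and with them averaged into 1 the counts were 4 and 2.

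A moderated F test over the 4 populations asked whether a gene varied at all outside the middle precursors. It passed for 15 of the 72 genes, 20.8% against 14.4% of all probe sets and 27.3% of the 3596. The widest ranges among them, from the lowest to the highest of the 4 means, were 3.78 for AT1G68500 (adjusted p = 0.000189), 2.41 for BGLU25 (adjusted p = 0.0237), 2.40 for AT2G03980 (adjusted p = 0.00162), 2.32 for AT5G66440 (adjusted p = 0.00192) and 2.25 for AT4G34500 (adjusted p = 0.0315). The F test of BGLU25 passed in 12 of 18 alternative fits and that of AT4G34500 in 9 of 18. A gene that did not pass is not thereby shown to be level outside the middle.

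**Figure D5:**
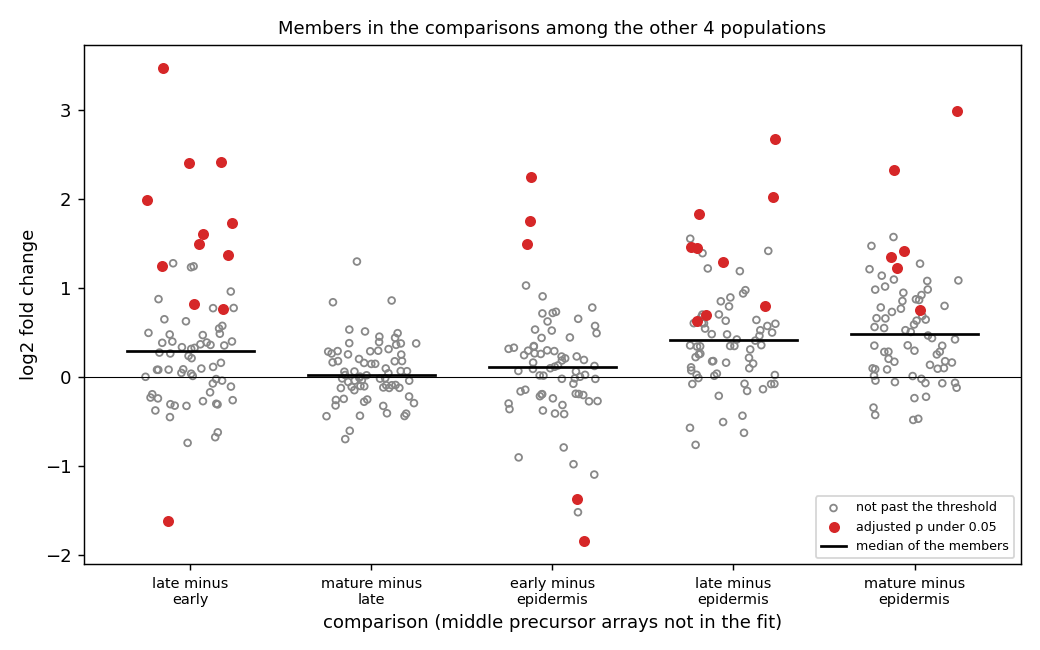
Points are the log2 fold changes of the 72 genes in each of the 5 comparisons that leave out the middle precursors, filled where the adjusted p was under 0.05, with a bar at the median. The medians are 0.29, 0.02, 0.10, 0.41 and 0.48 from left to right, and the filled points number 12, 0, 5, 9 and 6.

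The spread between replicates was unequal among the populations. The median SD of the 72 genes was 0.252 in middle precursors, against 0.501 in early precursors, 0.206 in late ones, 0.29 in mature guard cells and 0.33 in sorted epidermis. The rule bounds the middle arrays from below and the other arrays from above, so each of these values is partly shaped by it. Over the 3596 probe sets of 1 gene with a middle mean of at least 3.5, the median SD was larger in every population. It was 0.278 in middle precursors, 0.642 in early ones, 0.25 in late ones, 0.329 in mature guard cells and 0.387 in sorted epidermis. Early precursors had the widest SD for 34 genes, and early precursor replicate 1 was the lowest of the 12 other arrays for 21 genes. No share over all probe sets was taken for either count. Pairs of early arrays had a Pearson's r of 0.82 to 0.867 across probe sets, against at least 0.948 in the other 4 populations.

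Values near the limits of the rule show how sharp they are. AT4G29680 and AT1G10590 lay just inside the limit on the gap, at 0.512 and 0.52, and AT2G26190 and AT4G32190 just outside, at 0.491 and 0.478. AT5G47610 and AT3G17640 lay just inside the limit on the middle mean, at 3.58 and 3.61, and AT1G33055 and AT3G50780 just outside, at 3.48 and 3.37. The lowest middle array was 0.009 and 0.012 above the highest other array in AT2G47320 and AT4G34500, and 0.01 and 0.023 below it in AT1G32780 and RBL.

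The genes were spread over all 5 chromosomes, with 26, 7, 9, 11 and 18 of the 71 placed genes on chromosomes 1 to 5. Chromosome 1 held 36.6% of them, against 25.9% of all placed probe sets of 1 gene. In the order of genes of the TAIR10.1 assembly none were direct neighbours (0 pairs). The closest were AT1G68470 and AT1G68500, with 2 genes between them, and AT1G06210 and AT1G06250, with 4. The first pair did not share a pattern outside the middle, since AT1G68470 was near the background in late precursors and mature guard cells, where AT1G68500 averaged 8.38 and 8.69.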

How the data were processed

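The deposited values are log2 expression levels, which the authors computed with affy and RMA according to the submitters' processing notes, where no version is named. That they are log2 is inferred from RMA and from their range, 1.11 to 13.4. Array medians ran from 2.52 to 2.68, and levels are not per gene length, so genes are not ranked by level. Genes were named through the platform annotation (12783 of 20956 probe sets list 1 gene, 37 several and 8136 none) and a RefSeq list of genes on TAIR10.1, which holds 71 of the 72 genes. The files state no build, so no coordinates are given.

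The 12 arrays outside the middle precursors were fitted with 1 mean per group (8 residual degrees of freedom) in limma 3.58.1 under R 4.3.3, with empirical Bayes, two-sided tests and Benjamini-Hochberg adjustment over all probe sets. The code of the fit was run on simulated data, with noise of the same size for every probe set of a group. The real spread differs between probe sets, so that run does not bear on the calls given here.

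The genes, the marker lists and the tests were chosen with earlier results of these data known, and gene families were looked up after the values had been seen. Genes were named where they had 1 of the 20 widest gaps, a symbol, 1 of the 5 largest called changes per comparison and direction, 1 of the 5 widest called ranges, or a place next to a limit of the rule. Alternatives were all 15 arrays, the compared groups alone, the replicate number as a block, array weights, cyclic loess, the brighter probe sets, averaged late replicates, and each array left out.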

Additional observations from a re-analysis of the deposited data

How the results depend on the processing

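The number of genes was 72 by the rule, 81 with a gap of 0.25, 30 with a gap of 1, 82 with a middle mean of 3, 63 with one of 4, 53 after cyclic loess and 183 without the separation of arrays. Leaving out each array in turn gave 71 to 147 genes, and 48 of the 72 met the rule in all 15 cases. Of the 72, the calls numbered 12 in late against early precursors (8 to 15 with 1 array left out), 0 in mature guard cells against late precursors (0 to 0), 5 in early precursors against the epidermis (2 to 11), 9 in late precursors against it (4 to 13), 6 in mature guard cells against it (2 to 9) and 15 in the F test (10 to 18). With array weights the counts were 3 in mature guard cells against late precursors, 22 and 13 in late precursors and mature guard cells against the epidermis, and 30 in the F test. With only the groups compared they were 1 and 15 in early and late precursors against the epidermis. With late precursor replicates 2 and 3 averaged they were 4 and 2 in late precursors and mature guard cells against the epidermis.

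With the replicate number as a block (replicate block) the counts were 10, 0, 5, 9, 2 and 12 in the same order. Over 30 pairs of arrays with the same number the correlation of deviations from the group means had a median of 0.00369 (-0.105 to 0.168). Over 60 pairs with different numbers it was -0.00313 (-0.157 to 0.123). It was above 0.1 in 3 and 2 pairs. The labels do not say whether samples with the same number were handled together, and these correlations cannot tell. Of 47 calls of single genes 19 were kept in every alternative, 28 were lost in at least 1 and 0 reversed.

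Over all probe sets the counts moved by more than 1.5 times as follows. Late against early precursors had 3119, 1436 with averaged late replicates and 1496 with only these groups. Mature guard cells against late precursors had 10, 29 with all 15 arrays, 779 with array weights, 3 with the brighter probe sets, the averaged replicates or the block, and 0 with only these groups. Against the epidermis, early precursors had 1352, 727 with array weights and 273 with only these groups. Late precursors had 1157, 4278 with array weights, 445 with averaged replicates and 1960 with only these groups. Mature guard cells had 439, 820 with all 15 arrays, 1190 with array weights and 257 with averaged replicates. The F test had 3010, 5151 with array weights and 1770 with averaged replicates. With 1 array left out these counts ran from 1454 to 4169, 2 to 42, 720 to 2058, 431 to 1584, 139 to 775 and 1710 to 3969. The causes of these shifts were not tested. Genes near the bound of the background give limits rather than levels.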
